A study of Homo sapiens with 18 samples.

Results

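The genes of the cytosolic ribosomal proteins, the protein parts of the ribosomes that translate nuclear-encoded mRNA, were read out of RNA-seq and MeDIP-seq of K562 cells. Members were taken by symbol, as RPL or RPS with a number and an optional suffix together with RPLP0, RPLP1, RPLP2 and RPSA, and without pseudogenes and the S6 kinases. This gave 85 of the 55766 genes in the count table, 35 of the small (40S) subunit and 50 of the large (60S) subunit. The rule uses symbols alone. K562 is an established human leukaemia line with erythroid features, and the cells of all 3 groups carried a B2M:tdTomato transgene, so B2M, the light chain of MHC class I, was tagged with a red fluorescent protein. The untreated group received no repressor. The TALE group and the dCas9 group are labelled as silenced, by repressors built on TALE or on dCas9, which are both programmable DNA-binding proteins, and in this study such repressors were aimed at the promoter of B2M. Silencing used 3 plasmids, each coding for a different repressor (called ATR in the labels, with a D3A-based repressor among them), and the dCas9 treatment added a plasmid for the guide RNA. The labels give neither the time from treatment to collection nor whether cells were sorted or cloned. Each assay had 3 libraries per group, numbered below as in the sample titles. The labels do not say that these came from separate cultures, so p-values measure only the spread between these samples, which may be technical.

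A ribosome holds 1 copy of nearly every ribosomal protein beside its ribosomal RNAs, and a growing cell keeps the proteins in balance although their genes lie on many chromosomes. Most of the mRNAs begin with a C followed by an unbroken run of pyrimidines, the terminal oligopyrimidine (TOP) motif, through which LARP1 and mTOR signalling control their translation and storage. Loss of 1 copy of any of several of these genes causes Diamond-Blackfan anaemia, a failure of red cell production, and extra-ribosomal RPL5 and RPL11 with the 5S RNA bind MDM2 and so stabilise p53.

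RNA libraries held between 8460076 and 12050554 counts, made from total RNA with a kit for degraded RNA. The row of the tagged transgene, B2M_tomato, had 4109, 3115 and 3249 counts in untreated libraries 1 to 3, 128, 189 and 196 in the TALE libraries and 205, 154 and 140 in the dCas9 libraries, in the direction of the labels. In edgeR's quasi-likelihood test it fell by 4.65 on the log2 scale in the TALE group (adjusted p = 2.84e-12) and fell by 4.54 in the dCas9 group (adjusted p = 4.05e-12). Embryonic and fetal globin genes typical of K562 were high in all libraries, with HBG2 at 2743 to 4732 CPM (counts scaled to a fixed library total), whereas CD3E, MS4A1, CD14 and NCAM1, markers of other blood cells, stood at 0.800 CPM or less in each library. Counts of genes of the mitochondrial genome took 4.04% to 6.32% of the TALE libraries, 6.15% to 14.0% of the dCas9 libraries and 7.15% to 10.3% of the untreated libraries.

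The start of the mRNA is the sequence that these genes share and that the choice by symbol did not use. RefSeq promoter entries (build GRCh38.p14) were found for 66 members. At 43 of them (65.2%) the annotated first base was C followed by at least 4 C or T, against 1104 of all 27305 promoters in the same table (4.04%). Where such a run was present its median length was 8 bases and the longest, at RPL39, was 19. Each window below shows 10 bases before the start and 20 from the start on, 5′ to 3′ on the gene's strand, with the pyrimidine run at the start in capitals. The first 8 have a run and include the members with the highest level and the longest run. The last 5 have none at the annotated start and include members whose values between groups are described further on.
RPS18 (chr6:33272065-33272094, plus strand): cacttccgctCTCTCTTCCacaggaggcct
RPL28 (chr19:55385922-55385951, plus strand): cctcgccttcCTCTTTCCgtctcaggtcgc
RPS21 (chr20:62387093-62387122, plus strand): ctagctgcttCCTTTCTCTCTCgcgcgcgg
RPL31 (chr2:101002279-101002308, plus strand): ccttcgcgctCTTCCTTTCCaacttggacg
RPLP2 (chr11:809957-809986, plus strand): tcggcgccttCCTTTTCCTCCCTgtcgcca
RPS24 (chr10:78033853-78033882, plus strand): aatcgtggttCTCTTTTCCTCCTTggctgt
RPL39 (chrX:119791611-119791640, minus strand): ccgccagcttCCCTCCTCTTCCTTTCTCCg
RPL37A (chr2:216498834-216498863, plus strand): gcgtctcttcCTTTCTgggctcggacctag
RPS29 (chr14:49598691-49598720, minus strand): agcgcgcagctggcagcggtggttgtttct
RPL36AL (chr14:49620607-49620636, minus strand): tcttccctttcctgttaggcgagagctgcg
RPS27L (chr15:63157458-63157487, minus strand): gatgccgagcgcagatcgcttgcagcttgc
RPS28 (chr19:8321486-8321515, plus strand): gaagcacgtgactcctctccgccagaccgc
RPL17 (chr18:49492446-49492475, minus strand): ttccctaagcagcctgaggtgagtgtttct

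In the window of RPL36AL the annotated first base lies near the end of a pyrimidine stretch that begins before it, and in that of RPS28 a stretch lies next to the annotated base. When the run was allowed to begin from 5 bases before to 10 bases after the start, 84.8% of the 66 members had one, against 27.0% of all promoters. A demand for at least 7 pyrimidines after the C left 36.4% of members and 1.43% of all promoters. Over the whole 300-base window, searched on both strands, CCGGAAG, the core of sites bound by ETS factors, was present in 33.3% of members and 10.7% of all promoters. CTTTC, which overlaps the TOP run in many members, was present in 75.8% and 54.9%. TATAAA (9.09% against 11.95%) and CACGTG, the E-box that MYC can bind (4.55% against 7.43%), had lower shares at the members. A median member window held 23 CpG dinucleotides and a median promoter 14, at a GC content of 59.3% and 58.3%. These are counts of letters in reference sequence, not evidence of binding.

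Ribosomal protein genes were among the most abundant mRNAs of the untreated cells. Of the 85 members, 79 passed the filter on low counts (31 of 40S and 48 of 60S), as did 13786 genes of the whole table. Per kilobase of coding sequence, the median of the tested members was 1250 CPM in untreated libraries and that of the 10159 tested genes with an annotated coding length 18.5 CPM. Of the 79 members, 69 lay above the 90th percentile of these genes, 40 were among the 100 highest and 0 lay below the median. The scale overstates genes with a very short coding sequence, since reads from untranslated parts are counted too.

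Among the highest members were RPS18, at 7601 ± 1063 CPM per kilobase (SD, n = 3), RPL28 (6956 ± 291), RPS21 (6686 ± 1396) and RPL31 (5183 ± 586). RPS18 sits in the head of the small subunit and RPL31 near the exit of the large subunit's peptide tunnel. RPS18 and RPL28, and RPL28 and RPS21, differed by less than the larger SD of the pair. The 6 lowest tested members were RPL36A (19.6 ± 4.85), RPS27 (36.6 ± 5.32), RPL21 (53.0 ± 9.56), RPS26 (60.3 ± 13.7), RPL39 (63.2 ± 11.9) and RPL39L (67.1 ± 2.89). Apart from RPL36A and RPS27 their levels differed from the next by less than their SD.

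The low members were largely those whose coding sequence is repeated elsewhere in the genome. Ribosomal protein mRNAs have been copied into the genome many times as processed pseudogenes, and a read that matches several places can be dropped or assigned to another row. How the authors treated such reads is not given in the sources used here. The coding sequence of each member was cut into all its 50-base stretches, and each was looked up in GRCh37. The share found at another place ran from 0% to 100% with a median of 48.9%. The 22 members with under 25% copied had a median level of 3080 CPM per kilobase, the 18 with 25% to 50% 2081, the 16 with 50% to 75% 1062 and the 23 with 75% or more 230.4. Across the 79 members the Spearman correlation of level and copied share was -0.65, a description over genes measured in the same 3 libraries. In 8 members every stretch was copied, and their levels ran from 19.6 CPM per kilobase (RPL36A) to 880 (RPS28). RPL39L, a paralogue of RPL39 with 0% copied, was low all the same. The values cannot tell a low mRNA level from reads lost to copies.

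**Figure D1:**
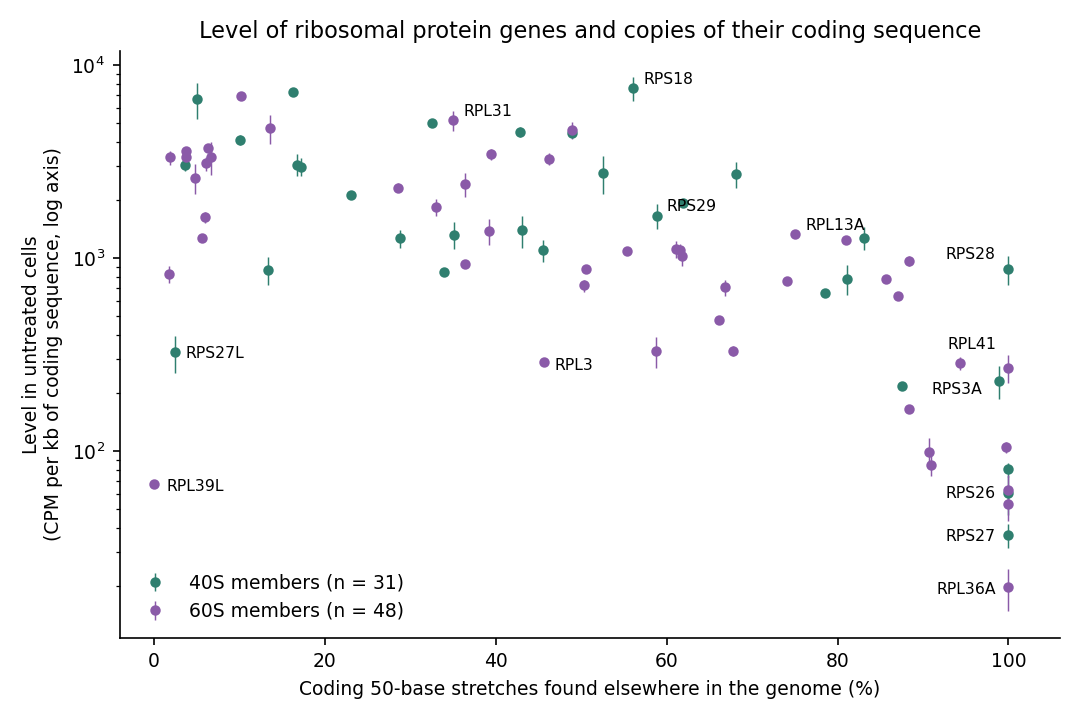
Level of each of the 79 tested members in untreated cells (vertical log axis, CPM per kilobase of coding sequence, mean ± SD of 3 libraries) against the share of its coding 50-base stretches that occur elsewhere in the genome (horizontal axis, %). Members with 75% or more copied had a median of 230.4 and those with under 25% copied a median of 3080.

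The table also lists 806 rows named as pseudogenes of members, and 74 of the 85 members had at least 1 such row, up to 56 for RPL21. In 11 members the pseudogene rows together held more counts than the gene. For RPL13A they held 126652 counts over the 9 libraries against 65370 on the gene, and for RPL39 7530 against 870. The pseudogene rows took 1.04% to 1.43% of a library's counts.

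Some paralogue pairs differed widely in counted level. Their copied shares differed too, so a difference in mRNA cannot be told from reads lost to copies. RPL36AL, a paralogue of RPL36A, had 297 ± 7.18 CPM in untreated libraries (934 ± 22.6 per kilobase), whereas RPL36A had 6.24 ± 1.54 CPM, with 36.4% and 100% of stretches copied. RPS27L, a p53-responsive relative of RPS27, had 82.2 ± 17.9 CPM (326 ± 71.2 per kilobase) against 9.22 ± 1.34 CPM for RPS27, with 2.46% and 100% copied. RPL39 and RPL39L, whose coding sequences are equally long, stood at 9.66 ± 1.82 and 10.3 ± 0.442 CPM, a difference within their SD. Of their stretches 100% and 0% were copied, so equal counts need not mean equal mRNA. RPL3 (351 ± 12.8 CPM), RPL10 (503.5 ± 18.8 CPM) and RPS4X (1672 ± 61.8 CPM) passed the filter, but their relatives RPL3L, known from muscle, RPL10L, known from testis, and the Y-linked RPS4Y1 did not. RPL3L had 25 counts over all 9 libraries and RPL10L had 11. RPS10L had 27 and was not tested either.

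The question of the RNA comparison was whether silencing of B2M left other transcripts as they were. In none of the comparisons did a ribosomal protein gene pass edgeR's quasi-likelihood test at an adjusted p of 0.05. In TALE against untreated cells 0 of 79 members were called, where the share of all genes called was 0.0218%. Before adjustment 3 members had p under 0.05, all lower, against 7.15% of all genes (2.86% higher and 4.29% lower). The groups did not overlap in 0 members, against 6.09% (higher) and 6.44% (lower) of all genes. The log2 fold changes of the members ran from -0.56 to 0.20 with a median of -0.14, and 63 of 79 were below 0, as were 49.4% of all genes, whose median was 0.00. The median was -0.21 over the 31 small-subunit members and -0.12 over the 48 large-subunit members. The 95% interval of a member's log2 fold change reached a median of 0.36 to either side and lay within a 2-fold change for all 79. These intervals are not adjusted for the number of members and cover only the spread between these libraries. The size of this median rested on single TALE libraries, while its direction stayed below 0 whichever library was left out: without TALE 1 the median was -0.04 and 59.5% of members were below 0, and without TALE 3 the median was -0.29 and 94.9% were below 0.

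RPS15A, a protein of the small subunit's body (GRCh37 chr16:18792617-18801705, minus strand, 5 exons), had the smallest p of this comparison. It stood at 424, 603 and 603 CPM in untreated libraries 1 to 3 and at 280, 315 and 513 CPM in the TALE libraries. TALE 1 and TALE 2 lay below all untreated libraries and TALE 3 lay among them. The log2 fold change was -0.56 ± 0.20 (SE), with an adjusted p of 0.585 in edgeR's test. Without TALE 3 it was -0.87 with an adjusted p of 0.0469, so that 1 library decided this call.

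RPS27L gave 61.9, 89.1 and 95.7 CPM in untreated libraries and 50.8, 48.2 and 75.8 in the TALE libraries, a log2 fold change of -0.50 ± 0.19 (SE, adjusted p = 0.610 in edgeR's test). RPS3A, near the exit of the mRNA channel, had 144, 212 and 192 CPM against 103, 120 and 181 (log2 fold change -0.44 ± 0.20). RPS20, in the head of the small subunit, had 733, 1136 and 1104 CPM against 632, 681 and 964 (-0.39 ± 0.19). In each of the 3 the TALE 1 and TALE 2 libraries were below every untreated library, and TALE 3 overlapped the untreated group. The members with the smallest p on the higher side were RPL36AL (log2 fold change 0.16 ± 0.15), RPL23A, a docking site at the tunnel exit (0.09 ± 0.12), RPS29 (0.20 ± 0.30) and RPS26, at the mRNA exit (0.12 ± 0.21), each within about 1 SE of 0. RPL23A and RPS29 were below 0 without TALE 3 (-0.02 and -0.05), and RPS26 without untreated 2 (-0.06).

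**Figure D2:**
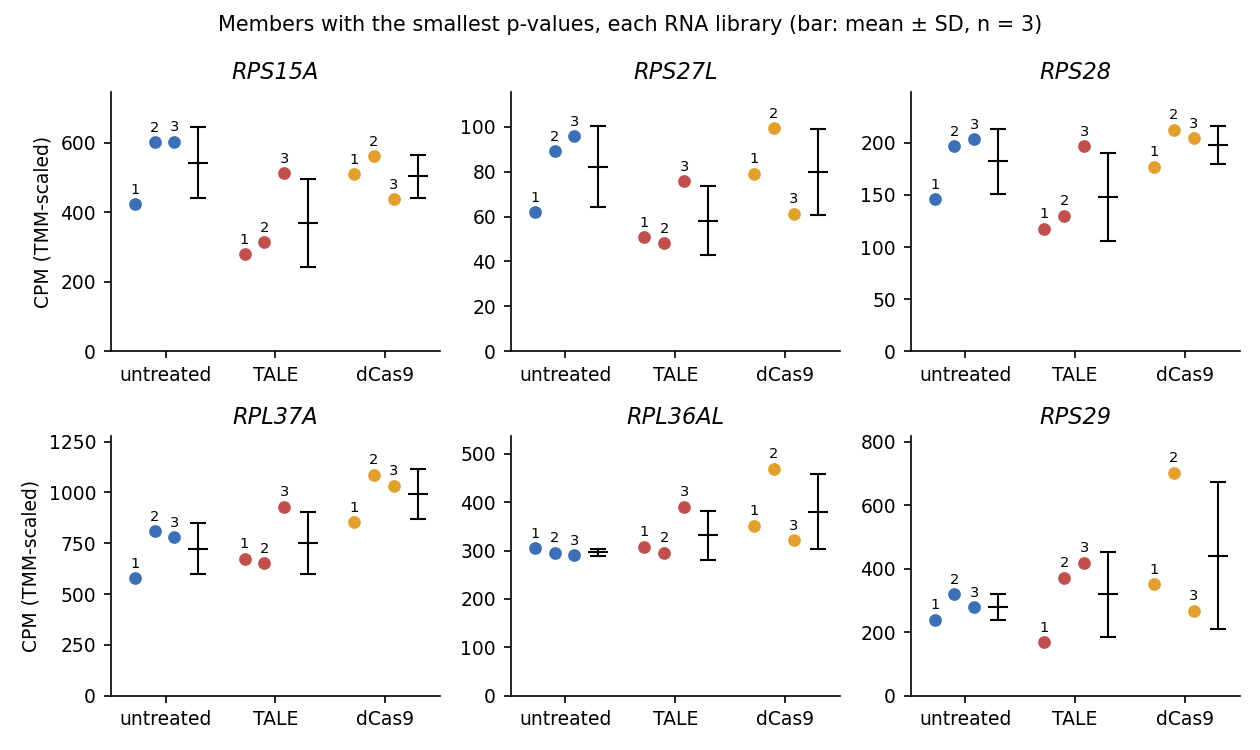
CPM (vertical axes, from 0, library totals scaled by TMM) of 6 members in each of the 9 RNA libraries, with points numbered by replicate and bars for mean ± SD of 3 libraries. RPS15A stood at 280 and 315 in TALE 1 and TALE 2 but at 513 in TALE 3, and RPS29 at 703 in dCas9 2.

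In dCas9 against untreated cells 0 of 79 members were called as well, with 0.029% of all genes called. Unadjusted, 3 members had p under 0.05, all higher, against 5.93% of all genes (3.1% higher and 2.83% lower). In 3 members, RPL37A, RPL36AL and RPL36, the lowest dCas9 library was above the highest untreated one (5.6% of all genes), and in 0 the reverse held (5.97% of all genes). The median log2 fold change was -0.05 and 51 of 79 were below 0, against 50.8% of all genes. It was -0.08 over small-subunit and -0.04 over large-subunit members, and ran from -0.15 without dCas9 1 to 0.01 without dCas9 3. Leaving out any 1 untreated library also moved it by over 1.5 times, to between -0.09 and -0.02. The interval lay within a 2-fold change for 78 of the 79, RPS29 being the exception.

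RPL37A, a small zinc-finger protein of the large subunit (GRCh37 chr2:217363548-217443903, plus strand, 4 exons), had the smallest p. It stood at 578, 809 and 780 CPM in untreated libraries and at 853, 1086 and 1032 in the dCas9 libraries, all 3 above the untreated range. The log2 fold change was 0.46 ± 0.17 (SE), with an adjusted p of 0.679 in edgeR's test. The row of its pseudogene RPL37AP1, which has the smallest p among the tested pseudogene rows, had 8.12, 16.7 and 13.2 CPM in untreated and 20.9, 26.5 and 27.0 CPM in dCas9 libraries (log2 fold change 0.99 ± 0.23, adjusted p = 0.208). By exact match 4.85% of RPL37A's coding stretches are copied, and its untranslated parts were not searched. Whether the gene and the pseudogene row share reads was not tested.

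RPL36AL, part of the large subunit at the tRNA exit site, had 305, 295 and 291 CPM in untreated libraries and 352, 470 and 321 in dCas9 libraries, with no overlap and a log2 fold change of 0.36 ± 0.15 (SE, adjusted p = 0.744 in edgeR's test). RPS29, a zinc-binding protein of the small subunit's head and a Diamond-Blackfan anaemia gene (GRCh37 chr14:50037702-50065882, minus strand, 3 exons), gave 240, 320 and 279 CPM in untreated libraries. Its dCas9 libraries gave 352, 703 and 268 CPM, so dCas9 2 alone stood far above the rest. Its log2 fold change was 0.66 ± 0.30 (SE, adjusted p = 0.827), 0.15 without dCas9 2, and 0.67 with an adjusted p of 0.00301 in the same test when no gene was filtered for low counts. RPL27A gave 458 ± 55.2 CPM in untreated and 557 ± 68.7 in dCas9 libraries, which overlapped (0.28 ± 0.17).

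On the lower side RPL17, which lines the peptide tunnel, had 44.2, 57.6 and 62.6 CPM in untreated and 57.2, 32.5 and 37.97 in dCas9 libraries (log2 fold change -0.36 ± 0.19). RPL13A, also known from a translation-silencing complex, had 777, 808 and 852 CPM against 858, 540 and 515 (-0.35 ± 0.19). RPL3, which reaches toward the peptidyl transferase centre, had 363, 338 and 352 CPM against 380, 209 and 271 (-0.29 ± 0.17), and RPS27 had 9.22 ± 1.34 against 7.37 ± 0.966 (-0.32 ± 0.19). In RPL17, RPL13A and RPL3 the dCas9 1 library was above at least 1 untreated library while dCas9 2 and dCas9 3 were below all of them. Summed with its pseudogene rows, RPL3 had a log2 fold change of -0.08.

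TALE and dCas9 cells were compared directly as well. Again 0 of 79 members were called, and 0% of all genes. Before adjustment 5 members had p under 0.05, all lower in TALE cells, against 6.38% of all genes (2.6% higher and 3.79% lower). RPL36A alone had TALE libraries that did not overlap with the dCas9 libraries (lower in 4.5% of all genes; higher in 0 of 79 members and 4.88% of all genes), at 5.29, 5.47 and 5.46 CPM in TALE and 5.84, 7.35 and 8.33 CPM in dCas9 libraries. The median log2 fold change was -0.12 and 56 of 79 were below 0, against 49.6% of all genes, but the median was 0.00 without TALE 1, -0.06 without TALE 2, -0.04 without dCas9 1 and -0.31 without TALE 3.

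RPS28, close to the mRNA exit, had 118, 130 and 197 CPM in TALE and 177, 213 and 204 CPM in dCas9 libraries, a log2 fold change of -0.42 ± 0.17 (SE, adjusted p = 0.745 in edgeR's test). The same comparison gave -0.47 ± 0.19 for RPS20, -0.46 ± 0.19 for RPS27L, -0.40 ± 0.17 for RPL37A and -0.45 ± 0.20 for RPS15A, each with TALE 3 inside the dCas9 range. The smallest p on the higher side belonged to RPL3 (0.30 ± 0.17), RPS26 (0.23 ± 0.21), RPL23A (0.12 ± 0.12) and RPL10, which joins the large subunit last (0.18 ± 0.19, and -0.04 without dCas9 2). When the mean of both silenced groups was set against untreated cells, which are the same controls as above, 0 of 79 members were called (0.0363% of all genes), 0 had an unadjusted p under 0.05 (6.35% of all genes, 2.69% higher and 3.66% lower) and 0 did not overlap (1.53% higher and 2.01% lower). The median was -0.09, with 61 of 79 below 0 against 49.9% of all genes, and ran from -0.17 without TALE 3 to -0.04 without TALE 1.

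The ribosomal stalk, through which elongation factors bind, showed no called difference. RPLP0, its base, stood at 453, 451 and 462 CPM in untreated, 367, 437 and 490 in TALE and 506, 339 and 432 in dCas9 libraries. The acidic proteins RPLP1 and RPLP2 stood at 471 ± 72.4 and 1158 ± 26.8 CPM in untreated libraries, and their log2 fold changes ran from -0.07 to 0.10 over the comparisons. RPL5 and RPL11 of the 5S particle stood at 3086 ± 213 and 1985 ± 70.3 CPM in untreated, 2660 ± 563 and 1915 ± 343 in TALE and 2984 ± 344 and 2363 ± 411 in dCas9 libraries, all of which overlapped. Their largest log2 fold change was -0.30 ± 0.18, of RPL11 in TALE against dCas9 cells. The 18 tested of 19 members listed as Diamond-Blackfan anaemia genes had medians of -0.16 (TALE against untreated), -0.03 (dCas9) and -0.20 (TALE against dCas9), with 0 called.

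In their summed share of counts, members differed less between the group means than between libraries of the TALE or of the dCas9 group. Together they took 6.46%, 6.94% and 6.99% of the counts of untreated libraries 1 to 3, 5.37%, 6.10% and 7.64% of the TALE libraries and 7.39%, 6.29% and 6.11% of the dCas9 libraries. The counting error is far below these gaps, with a 95% Wilson interval of at most 0.0171 percentage points to either side. Such intervals cover counting error only. The group means were 6.80% ± 0.293 (untreated), 6.37% ± 1.16 (TALE) and 6.60% ± 0.693 (dCas9), and the SD of the TALE group exceeded the gap between any of them. In bulk RNA, fewer cells of a type and less RNA per cell cannot be told apart.

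**Figure D3:**
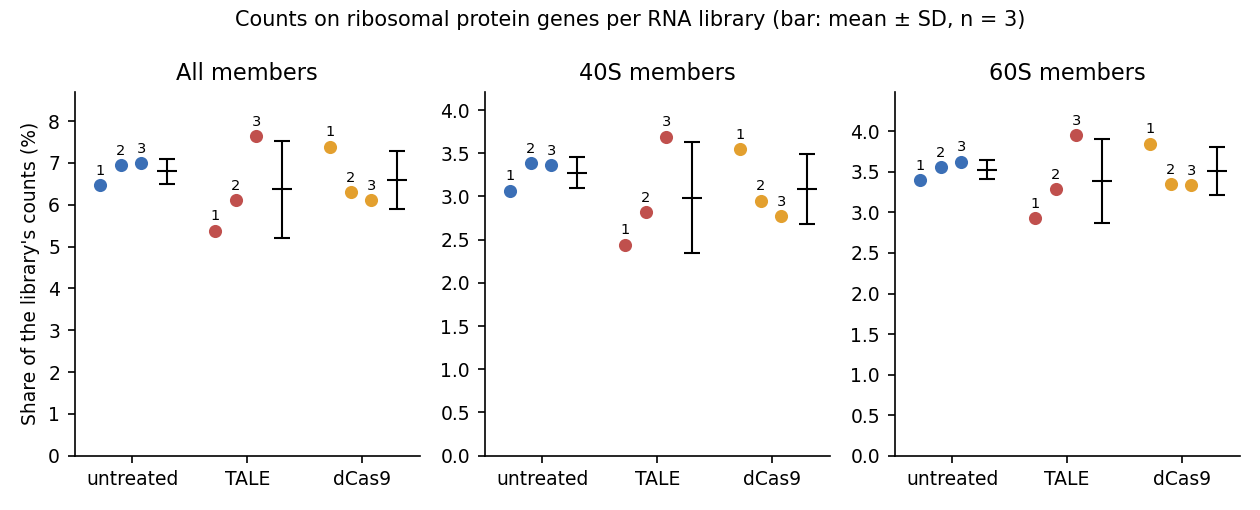
Share of each RNA library's counts that fell on members (vertical axes, %, from 0), for all 85 members and by subunit, with points numbered by replicate and bars for mean ± SD of 3 libraries. The TALE libraries span 5.37% to 7.64% and enclose every other library.

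The members deviated together from library to library. In TALE 3 78 of the 79 tested members were above their own mean over the 9 libraries and in dCas9 1 77 were, whereas in TALE 1 4 were. The median deviation of log2 CPM was 0.23 in TALE 3, 0.21 in dCas9 1 and -0.31 in TALE 1, against 0.00 to 0.01 for all tested genes in these libraries. The first principal component of the members carried 59.5% of their variance, with a loading of the same sign for 79 of 79, and that of all genes 22.1%. TALE 1 was the lowest library of 41 members and TALE 3 the highest of 28. Other genes with transcripts under 1000 nucleotides deviated in the same direction, with medians of 0.19 in TALE 3, 0.13 in dCas9 1 and -0.16 in TALE 1 over 1109 genes, whereas genes of 4000 nucleotides or more had medians of -0.11, -0.07 and 0.10. The median transcript length was 747 nucleotides for members and 2914 for other genes. The summed level of the 12 erythroid markers, here on library totals without TMM scaling, was likewise highest in TALE 3 and dCas9 1 (10792 and 10282 CPM). It stood at 7406 CPM in TALE 1 and 7099 in dCas9 3. The part of transcript length and of the erythroid genes in the members' pattern was not tested.

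Library dCas9 2 split the members among themselves. The second component carried 22.4% of their variance and had its extreme score in this library. RPS29 (1.13), RPL36AL (0.50) and RPL31 (0.49) deviated upward there on the log2 scale, and RPL10 (-0.69), RPS14 (-0.64), RPL3 (-0.63), RPS26 (-0.60) and RPLP1 (-0.60) downward. Across the 79 members the deviation in dCas9 2 had a Spearman correlation of -0.43 with the GC content of the transcript, and across 11082 other genes -0.23. dCas9 2 also had the largest share of mitochondrial counts (14.0%). The part of either in this split was not tested.

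Over the 9 libraries the median coefficient of variation was 16.3% for members and 14.8% for all tested genes. At a mean of at least 100 CPM it was 16.2% for 66 members and 10.7% for 2060 genes. RPS29 varied most (44.2%), followed by RPS21 (27.4%), RPS18 (26.4%) and RPS27L (25.8%). RPS18 ranged from 1812 CPM in TALE 1 to 3748 in untreated 3 and RPS21 from 971 in TALE 1 to 1953 in untreated 2. RPL4, which lines the tunnel (7.40%), RPL6 (7.87%), RPS4X (8.10%) and RPL23A (9.34%) varied least. RPL4 stood at 1400 ± 35.5 CPM in untreated, 1372 ± 110 in TALE and 1366 ± 165 in dCas9 libraries.

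The 42 tested members with the run had median log2 fold changes of -0.14 (TALE against untreated) and -0.05 (dCas9), and the 22 without it -0.09 and -0.05. Other genes known for TOP mRNAs, which include elongation factors, were more often above 0 than below: of 16 tested, 11 were above 0 in TALE against untreated cells with a median of 0.06, and 0 were called. EIF4B had the smallest p there (log2 fold change 0.30 ± 0.13). VIM, for vimentin, had the smallest p in dCas9 against untreated cells, at 335, 333 and 299.9 CPM in untreated and 376, 425 and 511 in dCas9 libraries (log2 fold change 0.44 ± 0.14, adjusted p = 0.549 in edgeR's test). Of 3 tested genes that code for ribosomal proteins under other names, FAU and GNB2L1 had log2 fold changes between -0.05 and 0.06 in all comparisons.

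Genes for ribosome assembly, which make and join the parts in the nucleolus, lay on the other side of 0 from the members in TALE cells. Of the 34 tested, 31 were above 0 against untreated cells, with a median of 0.20, and 32 were above 0 against dCas9 cells, with a median of 0.17. None was called in either, and 7 and 8 had TALE libraries above the other group without overlap (6.09% and 4.88% of all genes). RRS1, needed for the large subunit, had 39.5, 30.9 and 31.7 CPM in untreated and 61.9, 46.9 and 42.4 in TALE libraries (log2 fold change 0.56 ± 0.15, adjusted p = 0.383 in edgeR's test). LTV1, an export factor of the small subunit, had the smallest p against dCas9 cells (0.36 ± 0.13). The list took 0.641% of counts in TALE 1, where members were lowest, and 0.487% in TALE 3. In dCas9 against untreated cells 23 of 34 were above 0, with a median of 0.04. The 12 regulators and S6 kinases, which include LARP1, MTOR and MYC, had medians of 0.01 (TALE) and -0.01 (dCas9) against untreated cells, with 0 called. TSC1 (-0.18 ± 0.13) and RPS6KB1 (0.23 ± 0.13) had their smallest p in these comparisons.

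Introns of ribosomal protein genes also carry small nucleolar RNAs, which guide the modification of ribosomal RNA. By the annotation, 29 members host 58 such genes, all of them listed in the table. Those that passed the filter were SNORD15B, SNORD46, SNORA65, SNORA33 and SNORA66, the last of which is annotated at 2 places but has 1 row. None was called in any comparison by edgeR's test, where at most 0.0363% of all genes were called. Of them 1, in TALE against dCas9 cells, had an unadjusted p under 0.05, against 6.38% of all genes. This was SNORD15B, within RPS3, with log2 fold changes of -0.45 ± 0.20 (SE, adjusted p = 0.761 in edgeR's test) in TALE against dCas9 cells and 0.37 ± 0.21 (adjusted p = 0.899) in dCas9 against untreated cells. RPS3 itself had a log2 fold change of -0.18 ± 0.16 in TALE against dCas9 cells and stood at 926 ± 102 CPM in untreated libraries.

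MeDIP-seq captures DNA with an antibody against methylated cytosine, and its libraries held 2529729 to 4492751 counts over 198884 regions. No region and no peak of any of the 9 libraries lay over the start of any of the 82 members that could be placed in the region table's build, taken as the start of the canonical transcript. Of 19856 protein-coding genes, 1.21% had a region over the start. Within 0.5 kb a region was found for 2.44% of member starts (2 of 82) and 6.47% of all starts. The shares were 54.9% and 42.9% within 2 kb, and 95.1% and 68.1% within 5 kb. Nearly all genes had no region over the start, so this does not set members apart. Most regions within 2 kb of a member start lay upstream of it. The closest was a region 224 bases upstream of the canonical start of RPL6, which is within the gene as annotated because other transcripts start farther upstream, followed by one 389 bases upstream of RPS27 that spans 153959899 to 153962849 of chromosome 1 (GRCh37). The former had 8.88 and the latter 87.1 CPM on average over the 9 libraries. These CPM are not scaled by region length, and the region of RPL6 (112847633 to 112847922 of chromosome 12) is far shorter. The regions of RPS27, RPS24 (632 bases upstream) and RPS10 (669 bases upstream) had the highest CPM near members. All 3 are long, so this order does not rank the density of methylation. In untreated, TALE and dCas9 libraries the region of RPS24 had 71.1 ± 3.15, 65.4 ± 8.96 and 70.9 ± 6.01 CPM, and that of RPS10 66.5 ± 1.48, 60.2 ± 2.34 and 62.9 ± 1.77.

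**Figure D4:**
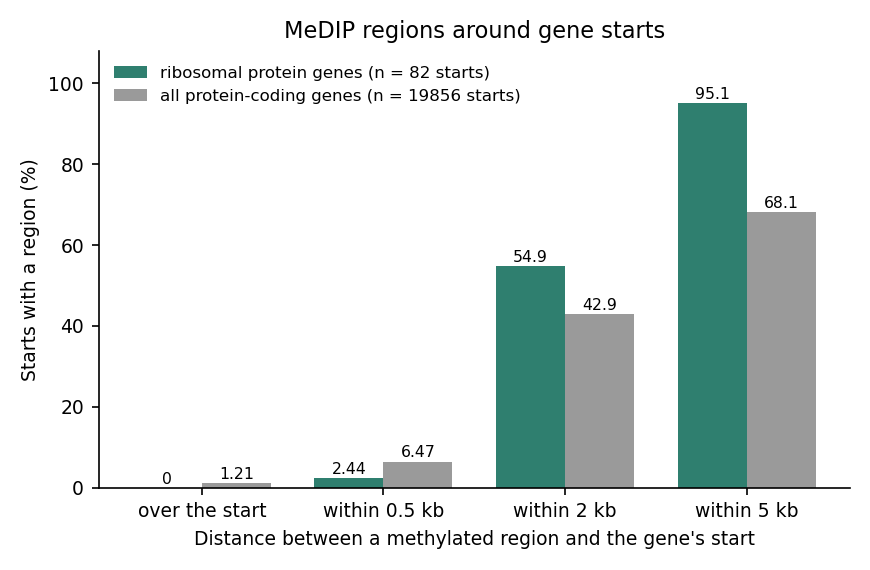
Share of gene starts with a MeDIP region over the start or within 0.5, 2 or 5 kb of it (vertical axis, %, from 0), for 82 ribosomal protein genes and 19856 protein-coding genes. Members have fewer regions than other genes within 0.5 kb (2.44% against 6.47%) and more within 2 kb (54.9% against 42.9%).

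Of the 49 regions within 2 kb of a member start, 41 passed the filter and 0 were called by edgeR's quasi-likelihood test in TALE against untreated (0% of all 105652 tested regions), dCas9 against untreated (0.000947%), TALE against dCas9 (0.000947%) or silenced against untreated cells (0%). Before adjustment 3, 2, 2 and 4 of the 41 had p under 0.05, against 4.74%, 4.69%, 4.47% and 4.88% of all regions. The region that ends 1842 bases upstream of RPL13 had 9.04 ± 1.28 CPM in untreated, 4.94 ± 0.702 in dCas9 and 6.13 ± 2.02 in TALE libraries (log2 fold change of dCas9 -0.86 ± 0.35, adjusted p = 1.00). The region that ends 1122 bases upstream of RPS18 had 8.12 ± 3.65 CPM in untreated and 12.9 ± 4.03 in TALE libraries (0.70 ± 0.31, adjusted p = 1.00). The other regions with the smallest p of a comparison were those of RPL28 (TALE against untreated, -0.81 ± 0.38), RPL29 (dCas9 against untreated, -1.20 ± 0.53), RPS3 and RPL39L (TALE against dCas9, 1.03 ± 0.50 and 0.76 ± 0.37), each with an adjusted p of 1.00 in edgeR's test. The median summed count of the regions near members over the 9 libraries was 218, and the 95% interval of a log2 fold change reached a median of 0.61 to either side. The width differed between regions: it ran from -0.26 to 0.19 for that of RPS27 (TALE against untreated) and from -2.25 to -0.15 for that of RPL29 (dCas9 against untreated). These intervals are not adjusted for the number of regions, so they do not mark the smallest change that the test could call.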

How the data were processed

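Each assay, RNA-seq or MeDIP-seq, had 9 samples in 3 groups taken from the sample titles. The deposited RNA and MeDIP tables hold raw counts per gene symbol and per region, and the authors' peak lists, called per sample, give a fold enrichment that was not used beyond the peaks' positions. STAR 2.3.0, BWA 0.7.5, Picard, MACS2, bedtools and hg19 are named in the submitters' processing notes. The counting rule for reads with several matches and the use of strand are not given in the sources used here. Counts were fitted over all genes or regions with edgeR 4.0.16 (TMM scaling, filterByExpr with a minimum of 10 counts, quasi-likelihood test on 3 group means, Benjamini-Hochberg adjustment, called under 0.05). The script was tested on simulated data. CPM were computed on TMM-scaled totals, except those of the cell type markers, which used unscaled library totals. Deviations use log2(CPM + 0.5). Positions, coding lengths and copies come from GRCh37 with GENCODE gene models, which matched 83 members, and start sequences from RefSeq. Protein sequences were not used here. Members, lists and tests were chosen with earlier results of these data known. Named genes were, per comparison, the 4 with the smallest p in each direction, the highest and lowest per length, the 4 most and 4 least variable, members not tested, paralogues, stalk and 5S particle genes. Of lists without calls, the gene with the smallest p was named, and of regions the 2 with the smallest p and the 3 with the highest level. SNORD15B, RPL36, the region near RPL6 and the members that deviate in dCas9 2 were named after their values were seen. Alternatives were other scalings, filters and tests (DESeq2 1.42.0), a replicate block and leaving out each library. Some genes that these rules name are not reported here.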

Additional observations from a re-analysis of the deposited data

How the results depend on the processing

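The count of members called in RNA was 0 under all alternatives in all 4 comparisons, apart from 1 in TALE against untreated without TALE replicate 3 (RPS15A; the range over left-out libraries is 0 to 1) and 1 in dCas9 against untreated with no filter on low counts (RPS29). Leaving out each library moved the median log2 fold change of members from -0.29 to -0.04 in TALE against untreated, from -0.15 to 0.01 in dCas9 against untreated, from -0.31 to 0.00 in TALE against dCas9 and from -0.17 to -0.04 for both against untreated, and the difference in summed share of counts from -1.06 to 0.0747, -0.597 to 0.0444, -0.859 to 0.275 and -0.630 to -0.0628 percentage points. Regions near member starts called were 0 under all alternatives. The share of members with a pyrimidine run, 65.2%, became 84.8% with the run near the start and 36.4% with a longer run. Among the members with the smallest p in each direction of a comparison, for which alone single values were recomputed, the sign changed in 4 cases as libraries were left out. In TALE against untreated, RPL23A ranged from -0.018 (without TALE replicate 3) to 0.17, RPS29 from -0.046 (without TALE replicate 3) to 0.50 and RPS26 from -0.055 (without untreated replicate 2) to 0.22, and in TALE against dCas9 RPL10 ranged from -0.038 (without dCas9 replicate 2) to 0.43. Deviations of RNA libraries from their group mean correlated with r from -0.28 to 0.10 for same-numbered and -0.14 to 0.25 for differently numbered libraries. The medians were 0.016 and 0.017. Such values do not tell whether the numbers mark a shared culture or day. With the replicate block the median log2 fold changes were -0.15, -0.04, -0.13 and -0.09 and 0 members were called. Over all genes the counts called in TALE, dCas9, TALE against dCas9 and both, 3, 4, 0 and 5, became 9, 29, 0 and 36 with DESeq2, 74, 89, 77 and 79 with no filter, 1, 2, 0 and 3 with at least 10 counts in every library, became 8 in dCas9 with only the groups compared and 2 there with the replicate block, and ranged over 2 to 16, 2 to 10, 0 to 21 and 2 to 33 when a library was left out. Without a filter the median of all genes shifted by -0.23, -0.13 and -0.24 in the comparisons of TALE, dCas9 and both with untreated cells, with 62.5%, 61.1% and 63.3% of all genes and 75.3%, 62.4% and 71.8% of members below 0. Depth limits the rarest members: those not tested had 27 counts or fewer over the 9 libraries.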
